A study of Mus musculus with 10 samples.

Results

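Wnt signalling genes were examined in mouse intestinal organoids, miniature epithelia grown in culture, that lacked or kept IκBα. The 53 genes described here are the ligands (Wnt), the Frizzled receptors (Fzd), the secreted inhibitors of the Dkk and Sfrp families and the R-spondins (Rspo), taken as every symbol made of one of these stems and a digit. Lrp5, Lrp6, Ror1, Ror2, Ryk, Porcn, Wls, Notum, Wif1, Lgr4, Lgr6 and Znrf3 were added by name. They are 53 of the 19505 genes named on the array, and each was read by 1 probe set. 5 samples were labelled knockout (KO) for IκBα and 5 wild type (WT), with 1 array each. IκBα, the product of Nfkbia, holds NF-kB transcription factors in the cytoplasm. The labels carry a P6 mark for all 10 samples, which was not interpreted. The sources used here give neither the strain, the allele and the means of deletion, nor whether samples came from separate animals or cultures. The p-values thus rest on the spread of these 10 samples alone, and that spread may be technical.

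Wnt proteins are lipid-modified by Porcn in the endoplasmic reticulum and carried to the cell surface by Wls. Outside the cell they bind a Frizzled receptor together with Lrp5 or Lrp6, which stabilises β-catenin, or with receptors such as Ror2, Ryk and Ptk7, which act on cell polarity and movement. In the small intestinal crypt Paneth cells secrete Wnt3, stromal cells secrete other Wnts and R-spondins, and R-spondins bound to Lgr4, Lgr5 or Lgr6 protect Frizzled receptors from the ligases Znrf3 and Rnf43.

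Levels are the deposited log2 values, and a change is KO minus WT on that scale. Nfkbia stood at 5.27, 5.34, 4.73, 4.72 and 5.23 in KO replicates 1 to 5 and at 9.19, 8.95, 8.98, 8.95 and 9.85 in WT replicates 1 to 5, so the labels and the targeted gene go together. The sources used here do not say where the deletion and the probes lie within Nfkbia. Negative control probe sets, taken by the mark in their identifiers, had medians of 4.30 to 5.10 and 95th percentiles of 7.17 to 7.77 in the 10 arrays. What these probes match was not looked up. For 39 of the 53 genes the means of both groups lay under that percentile (7.44 averaged over KO and 7.43 over WT). Their signal thus could not be told from that of such probes. The same held for 11094 of all 19572 named probe sets. Epithelial markers were bright in both groups (Epcam, mean 10.82 in KO and 11.12 in WT, and Vil1, 10.11 and 11.14), and 4 of 12 rose while 3 fell. The 13 measured of 14 fibroblast markers all lay under the 95th percentile, with list means of 5.02 to 5.35 in KO and 5.23 to 5.50 in WT, and 1 of them fell (3 at an unadjusted p under 0.05). Of 4 measured of 6 neuron and glia markers 1 rose, all of them in the same dim range. Pdgfra is unnamed here. Col1a1, a stromal collagen, lay at 7.13 and 7.18, and the immune marker Ptprc at 5.49 and 5.70. Of 5 measured of 7 immune markers 2 rose and 1 fell, with list means of 5.65 to 6.15 in KO and 5.88 to 6.18 in WT. Of the 6 smooth muscle and 6 endothelial markers none passed in limma, with 0 and 1 at an unadjusted p under 0.05, and all lay in the negative control range. 8 bacterial spike-in controls were lower in KO by a median of 0.52 (-0.85 to -0.10), and the 3 measured Y-linked transcripts had list means of 3.64 to 3.88 in KO and 7.43 to 8.09 in WT. Both the spike-in and the Y-linked difference run between the same groups as genotype, so neither can be told apart from it here. The labels give neither sex nor batch. The part of these differences in the results below was not tested. In bulk samples, a change in the number of cells of a type and a change in RNA per cell cannot be told apart.

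The family did not move as one. 18 of the 53 genes passed the test (limma, adjusted p under 0.05), or 34.0%, against 26.7% of all 19572 probe sets with a gene name. 14 of them rose in KO, or 26.4% against 15.0% of all probe sets, and 4 fell, or 7.55% against 11.7%. The median change was 0.03, against -0.01 over all named probe sets. The risers were the ligands Wnt7b, Wnt4 and Wnt7a, the ligand export genes Wls and Porcn, the receptors Fzd1, Fzd6, Fzd8 and Fzd3, the co-receptors Lrp5 and Lrp6, the receptor Ryk, the ligase Znrf3 and the inhibitor Sfrp5. Those that fell were Ror2, Fzd5, Wnt3 and Fzd4. For 6 of the 18 (Wnt7a, Fzd8, Fzd3, Sfrp5, Wnt3 and Fzd4) both group means lay under the 95th percentile of the negative controls. Over all named probe sets this held for 1598 of the 5224 that passed. For 17 of the 53 the KO levels and the WT levels were separate, which held for 21.4% of all named probe sets. The 35 genes that did not pass changed by -0.26 to 1.11, and 32 of them by less than 0.3 in size.

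**Figure D1:**
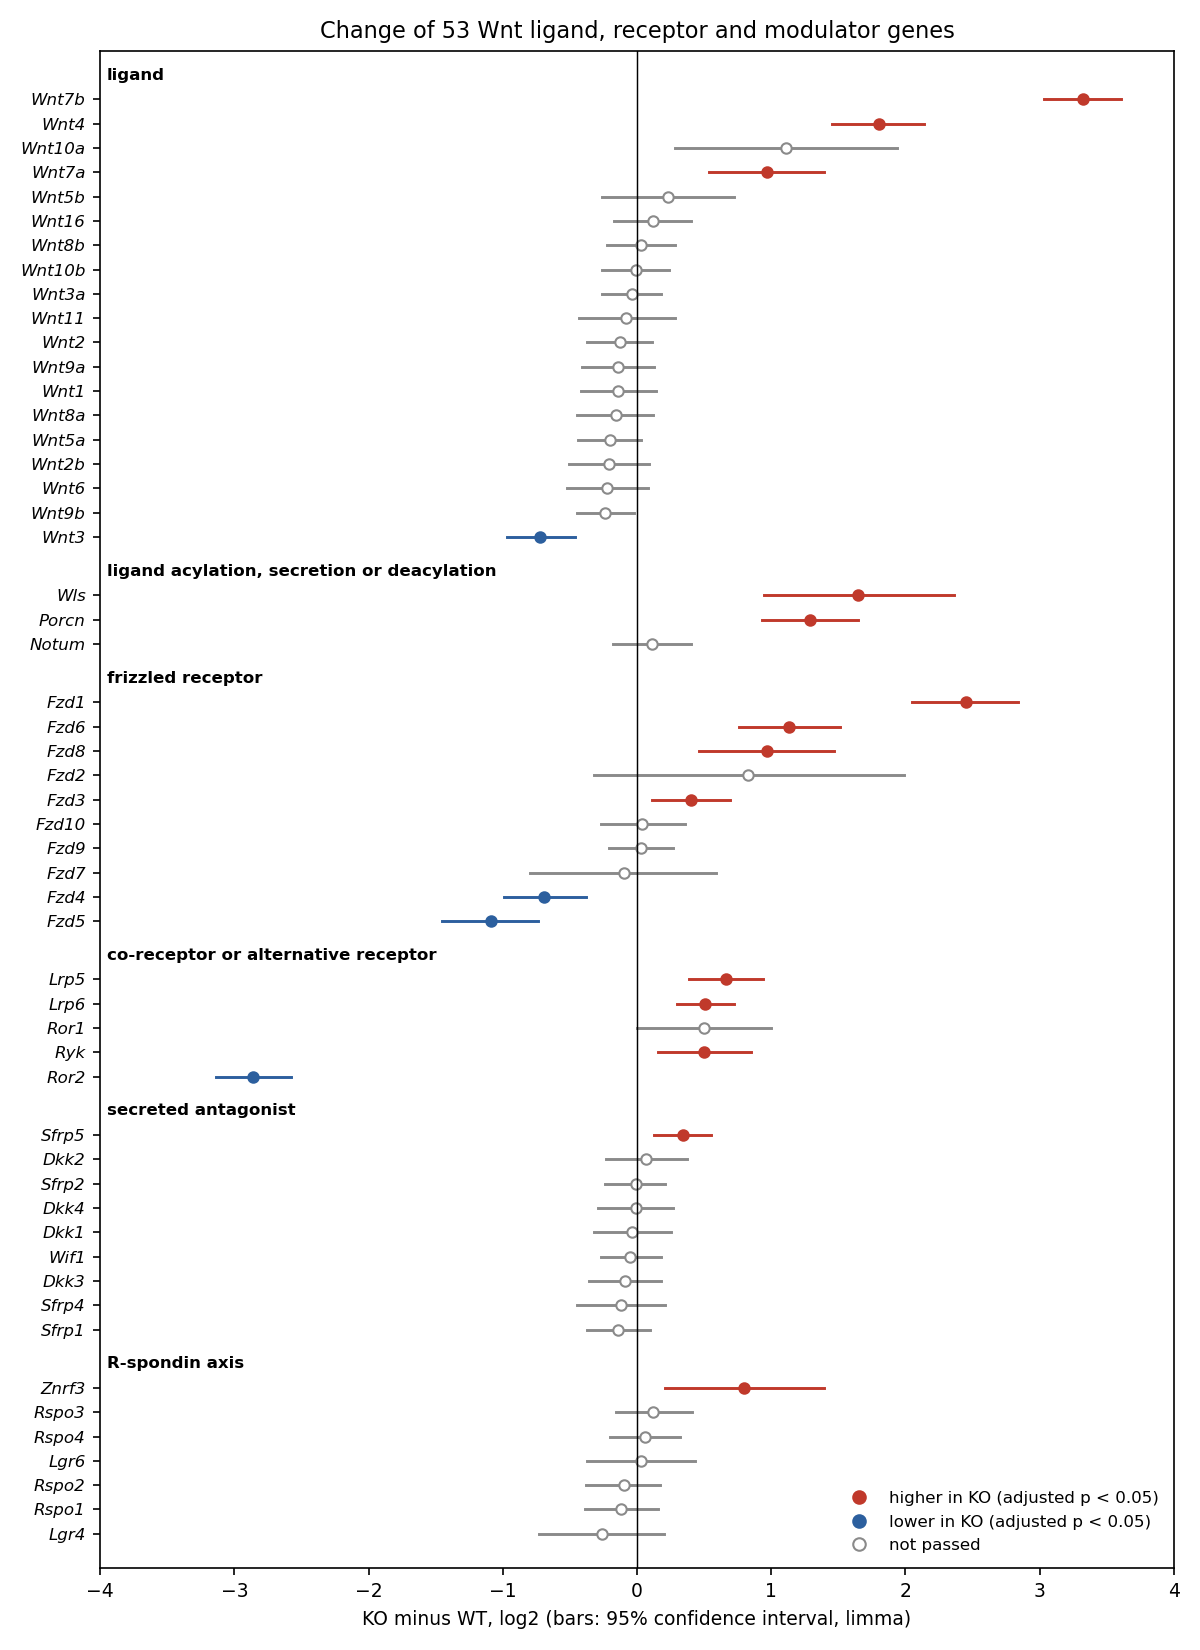
Change of each of the 53 genes (KO minus WT, log2, horizontal axis), grouped by role. Points are limma estimates and bars 95% confidence intervals from 5 KO and 5 WT arrays, with filled points for genes that passed. Wnt7b (3.32) and Ror2 (-2.86) lie furthest from 0, and most ligands, antagonists and R-spondins lie close to it.

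The promoters of 2 members that rose and 2 that fell are shown with the letters that were searched for motifs. They were taken from the RefSeq promoter table (GRCm38.p6), which held 34 of the 53 genes with 37 start sites. Each run is the 250 bases upstream of the start site on the gene's strand, 5′ to 3′. Capitals mark matches to any of 4 motifs, searched on both strands: the kB motif bound by NF-kB, the TCF/LEF motif (CTTTGAA or CTTTGAT), the AP-1 motif (TGANTCA) and the TEAD motif (GGAATG). These motifs did not overlap in the runs shown.
Wnt4, chr4:137277385-137277634 (+ strand): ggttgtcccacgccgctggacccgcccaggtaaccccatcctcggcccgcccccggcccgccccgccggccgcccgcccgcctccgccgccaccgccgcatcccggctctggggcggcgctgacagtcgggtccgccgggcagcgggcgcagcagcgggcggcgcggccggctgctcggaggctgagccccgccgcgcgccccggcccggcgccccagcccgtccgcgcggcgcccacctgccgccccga
Fzd1, chr5:4758217-4758466 (- strand): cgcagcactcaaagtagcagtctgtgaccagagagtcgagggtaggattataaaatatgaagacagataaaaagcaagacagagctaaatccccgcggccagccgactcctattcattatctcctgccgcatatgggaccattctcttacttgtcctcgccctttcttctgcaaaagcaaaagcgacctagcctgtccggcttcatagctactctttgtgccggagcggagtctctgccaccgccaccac
Fzd5, chr1:64737751-64738000 (- strand): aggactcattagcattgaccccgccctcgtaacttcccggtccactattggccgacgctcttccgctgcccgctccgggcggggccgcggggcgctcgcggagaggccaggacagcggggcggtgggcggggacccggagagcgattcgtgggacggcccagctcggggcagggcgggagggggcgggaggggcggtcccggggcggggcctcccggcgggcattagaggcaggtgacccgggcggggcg
Ror2, chr13:53286125-53286374 (- strand): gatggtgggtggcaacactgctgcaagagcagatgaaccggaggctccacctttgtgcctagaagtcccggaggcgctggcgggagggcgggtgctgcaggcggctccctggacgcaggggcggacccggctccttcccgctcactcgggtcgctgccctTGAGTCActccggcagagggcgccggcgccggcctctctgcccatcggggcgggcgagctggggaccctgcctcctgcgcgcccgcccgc

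Wnt4 and Fzd1 rose and Fzd5 and Ror2 fell, as given below. The 4 runs differ in base composition, with 85.2% G and C in Wnt4, 51.2% in Fzd1, 76.4% in Fzd5 and 73.2% in Ror2. The median was 66.8% over the members' promoters and 52.4% over all 32851 in the table. Of the 4 motifs these runs held 1 match, an AP-1 motif 90 to 84 bases upstream of the Ror2 start. Over all members a kB motif lay in 1 of 37 promoters (2.70%, against 3.90% of all promoters), TCF/LEF in 3 (8.11% against 7.48%), AP-1 in 2 (5.41% against 6.75%) and TEAD in 1 (2.70% against 12.6%). The kB matches were in Wnt10b, the TEAD matches in Lgr4, and the TCF/LEF matches in Dkk1, Wnt11 and Wnt5b, of which none had an unadjusted p under 0.05 in limma. A match is a run of letters and not a measured binding site.

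Among the ligands, Wnt7b changed most. Wnt7b, which signals through β-catenin in developing lung and kidney, read 9.64, 9.91, 10.22, 10.23 and 10.25 in KO replicates 1 to 5. The WT values were 6.69, 6.57, 6.70, 6.82 and 6.85. The groups were far apart, and the WT mean of 6.73 lay among the negative controls, so its WT level could not be told from background and the fold is that of the measured values. Wnt7b rose by 3.32 ± 0.13 (SE), which is 10.0-fold (limma, adjusted p = 6.13e-09), and 1.80% of all named probe sets changed by more in either direction. Its close paralog Wnt7a also rose. Wnt7a read 6.94, 7.04, 6.54, 7.30 and 7.74 in KO and 6.10, 6.31, 5.91, 6.24 and 6.17 in WT. The change was 0.97 ± 0.19 (SE) (limma, adjusted p = 0.00275), with no overlap, although both means lay in the range of the negative controls. Reck and Adgra2, which form a receptor complex for Wnt7a and Wnt7b on blood vessel cells, were looked up after the ligand values were seen. They changed by 0.05 and 0.11, and neither passed (limma, adjusted p = 0.918 and 0.542).

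Wnt4, a ligand of kidney and gonad development that can act with or without β-catenin, rose as well. Its levels were 8.53, 7.99, 8.46, 8.94 and 8.44 in KO and 6.68, 6.71, 6.77, 6.79 and 6.43 in WT. Every KO array lay more than 1 log2 unit above every WT array. Wnt4 rose by 1.80 ± 0.16 (SE), which is 3.47-fold (limma, adjusted p = 4.86e-06). Its WT mean of 6.67 lay in the range of the negative controls, so this too is the fold of the measured values.

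Wnt3, the Wnt of Paneth cells, fell. It read 4.99, 5.49, 5.14, 5.29 and 5.37 in KO and 6.0, 5.88, 6.02, 5.81 and 6.15 in WT. All KO values lay below all WT values, but both groups were dim, under the 95th percentile of the negative controls. The change was -0.72 ± 0.12 (SE) (limma, adjusted p = 6.92e-04), within the range of the spike-in controls (-0.85 to -0.10), which were also lower in KO. Markers of Paneth cells, the antimicrobial cells of the crypt base, moved the same way. Of 12 measured 10 fell and 1 rose, the protease Mmp7 (3.05), which was singled out after its value was seen. The mean level of the list was 5.28 to 6.32 in KO and 10.52 to 10.89 in WT, and the lysozyme Lyz1 changed by -6.95. The part of the Paneth cell difference in the Wnt3 result was not tested. Wnt9b, the gene next to Wnt3 in the RefSeq gene order, changed by -0.24 ± 0.10 (SE) and did not pass (limma, adjusted p = 0.102).

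Wnt10a, a ligand known from skin and teeth, was uneven across the KO arrays. It read 6.42, 6.52, 7.06, 7.96 and 8.73 in KO, against 6.23, 6.23, 6.13, 6.41 and 6.14 in WT. KO replicates 4 and 5 stood high, while KO replicate 1 lay 0.01 above the highest WT array. The change of 1.11 (95% interval 0.28 to 1.94) did not pass (limma, adjusted p = 0.0506), but it passed without KO replicate 1 or KO replicate 2 (limma, adjusted p = 0.0199 and 0.0249). Wnt6, its neighbour in the gene order, changed by -0.22 and did not pass. The other ligands changed by -0.24 to 0.23. None of them passed in limma, and 1, Wnt9b, had an unadjusted p under 0.05. They include Wnt5a (-0.20) and Wnt2b (-0.21), ligands of intestinal stroma, and Wnt3a (-0.04), the ligand often added to organoid media. Wnt11 (-0.08) and Wnt5b (0.23), which act mainly without β-catenin, were among them too. All of these had means within the negative control range in both groups.

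Both genes for making and exporting active Wnt proteins rose. Porcn, the acyltransferase, read 9.26, 9.46, 9.35, 10.05 and 10.00 in KO and 8.45, 8.37, 8.36, 8.34 and 8.16 in WT. Every KO array lay above every WT array, and the change was 1.29 ± 0.16 (SE) (limma, adjusted p = 1.03e-04). Wls, the carrier, read 9.82, 9.07, 9.04, 9.60 and 9.66 in KO and 8.52, 7.67, 8.26, 6.57 and 7.91 in WT. WT replicate 4 was the lowest of the 10, and the groups did not overlap. Wls rose by 1.65 ± 0.32 (SE) (limma, adjusted p = 0.00230). Notum, the secreted enzyme that strips the lipid off Wnts, changed by 0.11 (95% interval -0.18 to 0.40) and did not pass.

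The Frizzled receptors went both ways, with 4 of 10 higher, 2 lower and 4 not passing, against 15.0% higher and 11.7% lower among all named probe sets. Fzd1 changed most, with 7.94, 7.76, 8.22, 8.48 and 8.68 in KO and 5.89, 5.51, 6.08, 5.69 and 5.68 in WT. The WT arrays were in the range of negative controls, and the groups were well separated. Fzd1 rose by 2.45 ± 0.18 (SE), a fold of 5.45 between the measured values (limma, adjusted p = 1.14e-06). Fzd6, a receptor linked to tissue polarity, read 8.42, 8.23, 8.51, 8.73 and 8.56 in KO and 7.82, 7.29, 7.47, 6.81 and 7.41 in WT. It rose by 1.13 ± 0.17 (SE), without overlap (limma, adjusted p = 3.76e-04), and its WT mean of 7.36 lay under the 95th percentile of the negative controls. Fzd8 and Fzd3 were dim throughout. Fzd8 read 5.71, 5.70, 5.84, 6.39 and 7.03 in KO against 5.15, 5.24, 5.05, 5.17 and 5.24 in WT, a change of 0.97 (limma, adjusted p = 0.00835) in which KO replicate 5 stood highest. Fzd3 read 5.48, 5.14, 5.56, 5.20 and 5.63 in KO against 4.92, 4.71, 5.11, 5.20 and 5.07 in WT. These groups overlapped, and the change of 0.40 (limma, adjusted p = 0.0450) did not pass when any 1 of 7 arrays was left out, these being KO replicates 1, 3 and 5 and WT replicates 1, 2, 3 and 5 (adjusted p in limma from 0.0563 to 0.112).

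Fzd5 and Fzd4 fell. Fzd5, a receptor needed for Paneth cell maturation, read 9.10, 9.34, 9.29, 9.63 and 9.28 in KO and 10.01, 10.47, 10.19, 10.86 and 10.57 in WT. The highest KO array lay below the lowest WT array. Its change was -1.09 ± 0.16 (SE) (limma, adjusted p = 3.40e-04). Fzd4, the receptor for norrin in retinal vessels, read 6.35, 6.50, 6.21, 6.15 and 6.51 in KO and 6.77, 7.07, 6.85, 7.46 and 7.0 in WT. The change was -0.69 (limma, adjusted p = 0.00318), in the dim range and, like that of Wnt3, within the range of the spike-in controls. Of its partners norrin (Ndp) changed by -0.21 and Tspan12 by 0.04, and neither passed. Both were looked up after the Fzd4 values were seen. Ndp was dim, with means of 4.42 in KO and 4.63 in WT, so its lack of change says little.

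Fzd7, a Wnt receptor of crypt stem cells, did not separate the groups. It read 7.32, 7.50, 7.44, 8.50 and 8.33 in KO and 8.52, 7.81, 8.50, 7.10 and 7.70 in WT. Each group held both low and high arrays, and the change was -0.10 with a 95% interval of -0.80 to 0.59 (limma, adjusted p = 0.850). Fzd2 spread most within KO, at 6.79, 6.25, 6.85, 7.89 and 9.41, against 6.39, 6.52, 7.34, 5.78 and 7.01 in WT. Its change of 0.83 had an interval of -0.32 to 1.99 and did not pass. Fzd9 (0.03) and Fzd10 (0.04) did not pass either.

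**Figure D2:**
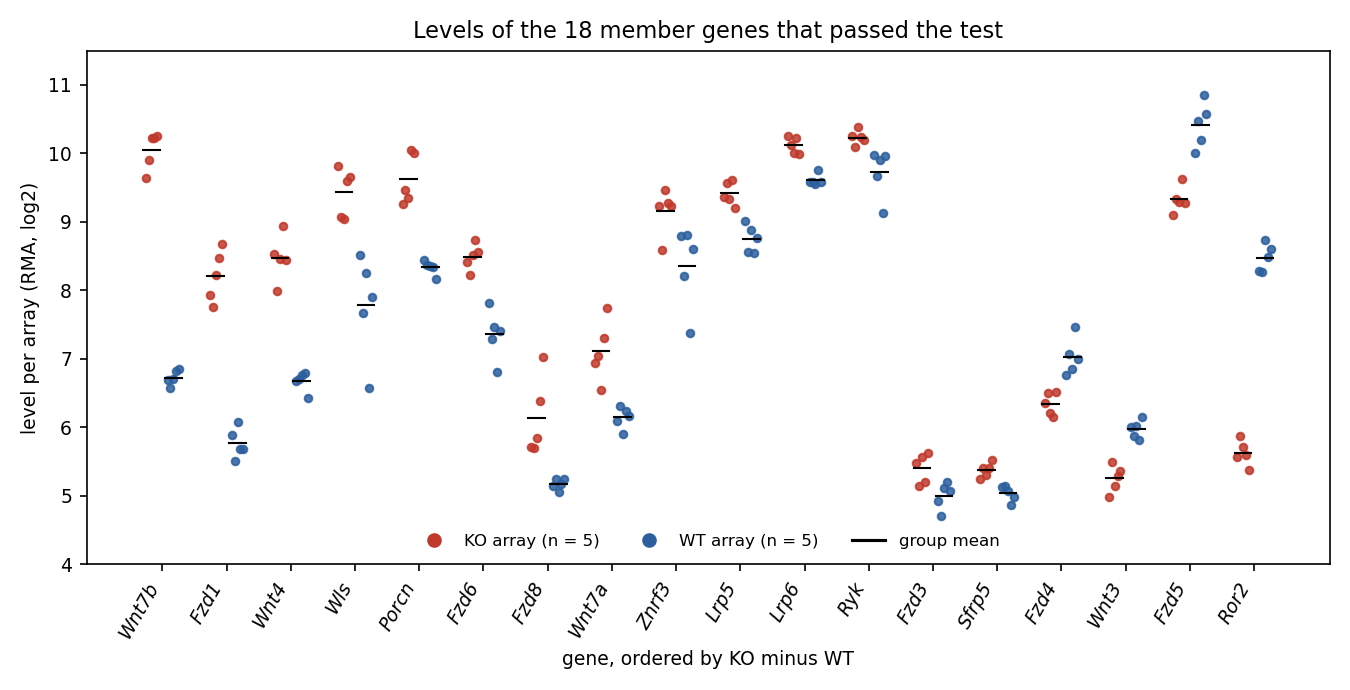
Level in each array (RMA, log2, vertical axis) of the 18 genes that passed, ordered from the largest rise to the largest fall, with 5 KO arrays at the left and 5 WT arrays at the right of each gene and lines at the group means. KO and WT points are separate for 16 of the genes and overlap for Fzd3 and Znrf3.

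The co-receptors rose by small amounts. Lrp6 read 10.25, 10.13, 10.00, 10.23 and 9.99 in KO and 9.58, 9.58, 9.56, 9.76 and 9.58 in WT, a change of 0.51 ± 0.09 (SE) (limma, adjusted p = 0.00176). Lrp5 read 9.37, 9.57, 9.34, 9.61 and 9.20 in KO and 9.01, 8.56, 8.88, 8.55 and 8.77 in WT, a change of 0.66 ± 0.13 (SE) (limma, adjusted p = 0.00193). For both genes the KO and WT levels were fully separate. The sizes are within the range by which the spike-in controls differed (at most 0.85), although those were lower in KO. The same limit holds for Fzd3 (0.40), Ryk (0.50), Sfrp5 (0.34), Znrf3 (0.80) and any change of at most 0.85 in the lists below. Ryk, a receptor with an inactive kinase domain, read 10.25, 10.09, 10.38, 10.24 and 10.20 in KO and 9.98, 9.67, 9.91, 9.13 and 9.96 in WT. It rose by 0.50 (limma, adjusted p = 0.0352), and did not pass when KO replicate 1, 3, 4 or 5 was left out, or WT replicate 2 (adjusted p in limma from 0.0636 to 0.0767).

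Of the 2 Ror receptors, which bind Wnt5a and act without β-catenin, 1 fell and 1 did not pass. Whether their changes differ was not tested. Ror2 fell to the negative control range, with 5.56, 5.87, 5.71, 5.59 and 5.38 in KO and 8.29, 8.27, 8.74, 8.49 and 8.61 in WT. The lowest WT array was more than 2 log2 units above the highest KO array. The change was -2.86 ± 0.13 (SE), which is 7.25-fold down (limma, adjusted p = 1.32e-08). The fold is that of measured values, since the KO level could not be told from background. Ror1 was dim in both groups, at 5.60, 5.32, 5.90, 6.0 and 6.67 in KO and 5.00, 5.48, 5.54, 5.71 and 5.27 in WT. Its change of 0.50 (95% interval 0.00 to 1.0) did not pass (limma, adjusted p = 0.139), but passed without KO replicate 2 (limma, adjusted p = 0.0491).

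Most secreted antagonists did not pass. Of the 9 Dkk, Sfrp and Wif1 genes among the members, 1 rose and none fell. These are 11.1% and 0%, against 15.0% and 11.7% of all named probe sets. The same 1 and 0 had an unadjusted p under 0.05 (limma). Sfrp5, which binds Wnts through a Frizzled-like domain, read 5.24, 5.41, 5.31, 5.41 and 5.53 in KO and 5.13, 5.14, 5.07, 4.87 and 4.98 in WT. The groups did not overlap, but all values were dim and the change was 0.34 (limma, adjusted p = 0.0212). It did not pass once KO replicate 5 was left out, nor once WT replicate 5 was (adjusted p in limma of 0.0577 and 0.0515). The other 8 changed by -0.14 (Sfrp1) to 0.07 (Dkk2), with Dkk1, a β-catenin target that blocks Lrp5 and Lrp6, at -0.04 and Wif1 at -0.05. All 9 had means in the negative control range in both groups. Frzb, an Sfrp family gene whose symbol lies outside the rule, is given with the other lists below.

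Of the 7 genes of the R-spondin axis 1 rose and none fell, also at an unadjusted p under 0.05 (limma). These are 14.3% and 0%, against 15.0% and 11.7% of all named probe sets. Znrf3, the ligase that removes Frizzled receptors, read 9.23, 8.59, 9.46, 9.28 and 9.24 in KO and 8.80, 8.21, 8.81, 7.38 and 8.61 in WT. The groups overlapped, KO replicate 2 and WT replicate 4 being the low arrays. The change of 0.80 (limma, adjusted p = 0.0472) did not pass when any 1 of 7 arrays was left out, all KO arrays but replicate 2 and, in WT, replicates 2, 4 and 5 (adjusted p in limma from 0.0566 to 0.10). Lgr4, the main R-spondin receptor of the crypt, read 10.62, 10.65, 9.93, 10.63 and 9.58 in KO and 10.54, 10.62, 10.74, 10.26 and 10.56 in WT. Its change was -0.26 with a 95% interval of -0.73 to 0.20, and it did not pass (limma, adjusted p = 0.424). Lgr6 (0.03) and the 4 R-spondins (-0.12 to 0.12) did not pass, and all 5 were dim in both groups.

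The spread within groups was not shared evenly between arrays. Within KO, 5 genes had an SD of 0.5 or more (Fzd2, Fzd7, Fzd8, Ror1 and Wnt10a). KO replicate 5 was the highest array for 4 of them and KO replicate 4 for Fzd7. Within WT, 4 genes spread that much (Fzd2, Fzd7, Wls and Znrf3), and WT replicate 4 was the lowest array for each. The same WT array held the highest WT level of Fzd5 (10.86) and of Fzd4 (7.46). It was also the lowest WT array for Lgr5, the R-spondin receptor of crypt base stem cells, and for Axin2, a feedback target of β-catenin. Lgr5 read 9.99, 9.32, 10.96, 7.56 and 9.78 in WT and 8.65, 8.48, 8.09, 8.29 and 9.54 in KO. Axin2 read 8.59, 8.89, 10.02, 6.93 and 9.30 in WT and 7.76, 6.70, 7.77, 6.61 and 8.14 in KO. With KO replicate 2 and WT replicate 4 both left out, 15 members rose and 5 fell, in place of 14 and 4. Over the 11 alternatives that include this run, 1772 to 3395 of all named probe sets were higher and 1262 to 2858 lower. The main fit gave 2928 and 2296.

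**Figure D3:**
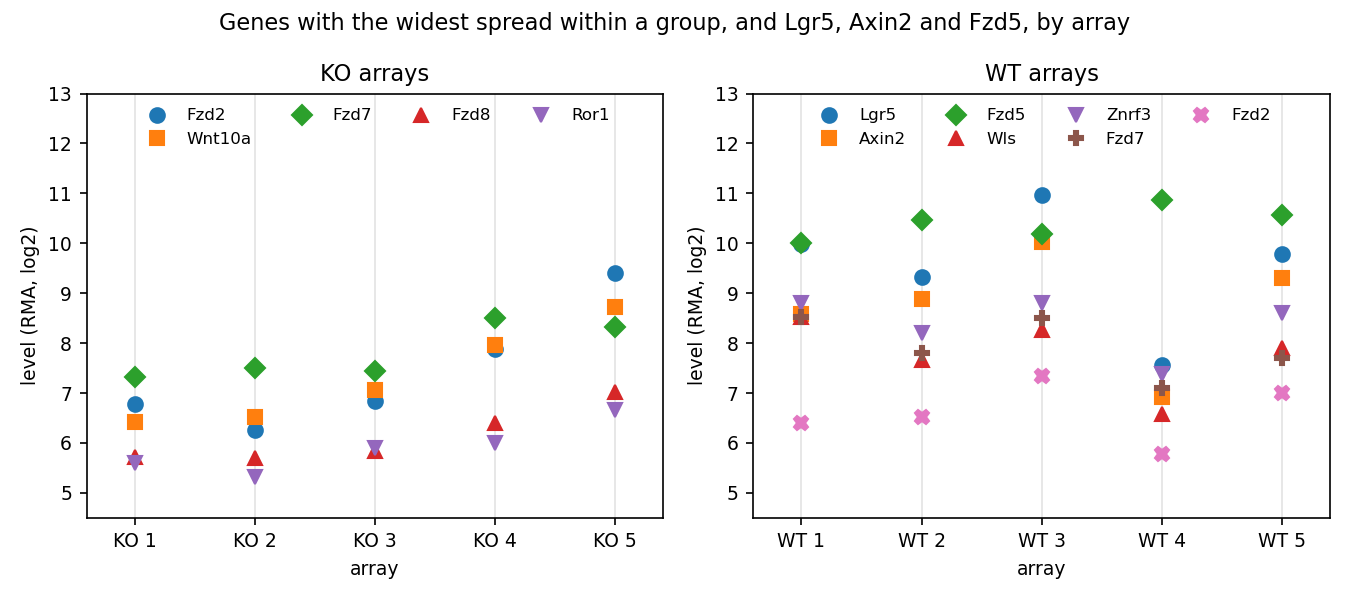
Level (RMA, log2, vertical axis) by array in KO, for the 5 members with an SD of 0.5 or more there, and in WT, for the 4 such members with Fzd5, Lgr5 and Axin2. KO replicate 5 holds the highest Fzd2 (9.41) and Wnt10a (8.73), and WT replicate 4 the lowest Wls (6.57), Znrf3 (7.38), Lgr5 (7.56) and Axin2 (6.93) of its group.

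The rest of the pathway was read from 5 lists, of which 103 genes were measured beside the members. 29 of these rose and 8 fell (limma, adjusted p under 0.05), or 28.2% and 7.77%, against 15.0% and 11.7% of all named probe sets. Without KO replicate 2 or without WT replicate 3, 5 fell. The median change was 0.10. Among 21 other membrane and secreted genes 4 rose and 2 fell, or 19.0% and 9.52%. Ptk7, a receptor-like protein of planar cell polarity, stood at 8.99 to 9.36 in KO and 5.13 to 5.49 in WT, a rise of 3.93 (limma, adjusted p = 4.17e-10). The heparan sulfate proteoglycan gene Gpc6 rose by 1.74, the cadherin partner Ctnnd1 by 0.63 and E-cadherin (Cdh1) by 0.45. The 2 that fell, named after their values were seen, were Gpc3 (-1.43) and Frzb (-0.41). Both were in the negative control range in both groups, with means of 5.46 in KO and 6.89 in WT for Gpc3. Those of Frzb were 4.34 in KO and 4.75 in WT. These signals thus could not be told from background. On leaving out any 1 array other than WT replicate 1, 0 or 1 fell. Lgr5 changed by -0.91 (limma, adjusted p = 0.236) and passed without WT replicate 4, at -1.40 (limma, adjusted p = 0.0129).

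Of the 27 measured genes of the cytoplasmic β-catenin machinery 9 rose and none fell in limma (33.3% and 0%, against 15.0% and 11.7% of all named probe sets), with 11 and 3 at an unadjusted p under 0.05. Csnk1e, a casein kinase that phosphorylates Dishevelled and Lrp6, rose by 1.90 (limma, adjusted p = 6.85e-05), with 10.38 to 10.86 in KO and 7.74 to 9.07 in WT. Btrc and Fbxw11, the ubiquitin ligase subunits that recognise phosphorylated β-catenin and IκBα, rose by 0.73 and 0.60, and the Axin-modifying enzyme Tnks2 by 0.60. Axin2 changed by -1.35 ± 0.51 (SE) and did not pass (limma, adjusted p = 0.0729). Without WT replicate 4 its change was -1.80 (limma, adjusted p = 0.00451) and 2 genes of the list fell, and without KO replicate 3, 1 fell. Ctnnb1, fixed to be named, is unnamed here and was not analysed.

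Of 16 measured nuclear genes 6 rose and 1 fell, or 37.5% and 6.25% (15.0% and 11.7% of all named probe sets). The β-catenin co-activator gene Bcl9l rose by 1.28 and Pygo2 by 0.87, and the co-repressors Tle3 and Tle1 moved apart, by 1.22 and -0.86 (limma, adjusted p at most 0.00122 for each of the 4). Tcf7l2, the main TCF factor of the intestine, changed by 0.16 (95% interval -0.30 to 0.61) and did not pass.

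Of 22 measured canonical target genes, 4 of them members, 4 rose and 3 fell, or 18.2% and 13.6% (15.0% and 11.7% of all named probe sets). Cd44, a hyaluronan receptor, rose by 3.21. Mmp7, which is also in the Paneth cell list, rose by 3.05, and the intestinal factors Cdx1 and Ascl2 changed by -3.01 and -1.01. Sox9 (1.0), Znrf3 (0.80) and Rhobtb3 (-0.69) passed as well. Others, named after their values were seen, did not pass, such as the feedback inhibitor Nkd1 (-0.15) and the transcription factor Sp5 (0.09). Bright genes that did not pass included Myc (0.75, means 11.69 in KO and 10.93 in WT) and Slc12a2 (-0.21, 11.03 and 11.24). For 12 of the 22 genes, Nkd1, Sp5 and Ascl2 among them, both group means lay under the 95th percentile of the negative controls. A lack of change in such genes thus says little. Ascl2 did not pass against a change of 1.2-fold (limma's treat, adjusted p = 0.0584). Leaving out KO replicate 3, 4 or 5 or WT replicate 2 left 2 that rose, and leaving out WT replicate 4 gave 5 that fell.

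Planar polarity and calcium branch genes were measured for 26 entries, of which 7 rose and 2 fell, or 26.9% and 7.69% (15.0% and 11.7% of all named probe sets). The polarity genes Celsr1 and Vangl1 rose by 2.22 each and Vangl2 by 1.25. Fuz, a polarity effector needed for cilia, rose by 2.0 (limma, adjusted p at most 1.89e-04 for each of these genes). Celsr1 stood at 8.51 to 8.85 in KO and 6.28 to 6.81 in WT. Vangl1 stood at 9.20 to 9.75 in KO and 6.85 to 7.64 in WT. The WT means of Celsr1, Vangl1 and Vangl2, and both means of Fuz, lay under the 95th percentile of the negative controls, as did the WT means of Ptk7 and Gpc6. Ptk7, Celsr1, Vangl1 and Vangl2 were higher in every KO array than in any WT array, while Ror2 was lower in every KO array. Celsr1, Vangl1, Fuz and Vangl2 were named for the smallest p-values of the list, and 17 of its 26 genes did not pass. Among the 17, named after their values were seen, were Celsr2 (0.26), Celsr3 (-0.09), Prickle1 (0.14), Prickle2 (-0.05) and Scrib (-0.20). Celsr2, Prickle1 and Prickle2 had both group means under the 95th percentile of the negative controls. The 2 genes of the list that fell, named after their values were seen, were the kinase Mapk8 (-0.61) and Nfatc3 (-0.45). Mapk8 was in the negative control range in both groups, with means of 6.61 in KO and 7.23 in WT. The lists were chosen with earlier results of these data known.

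**Figure D4:**
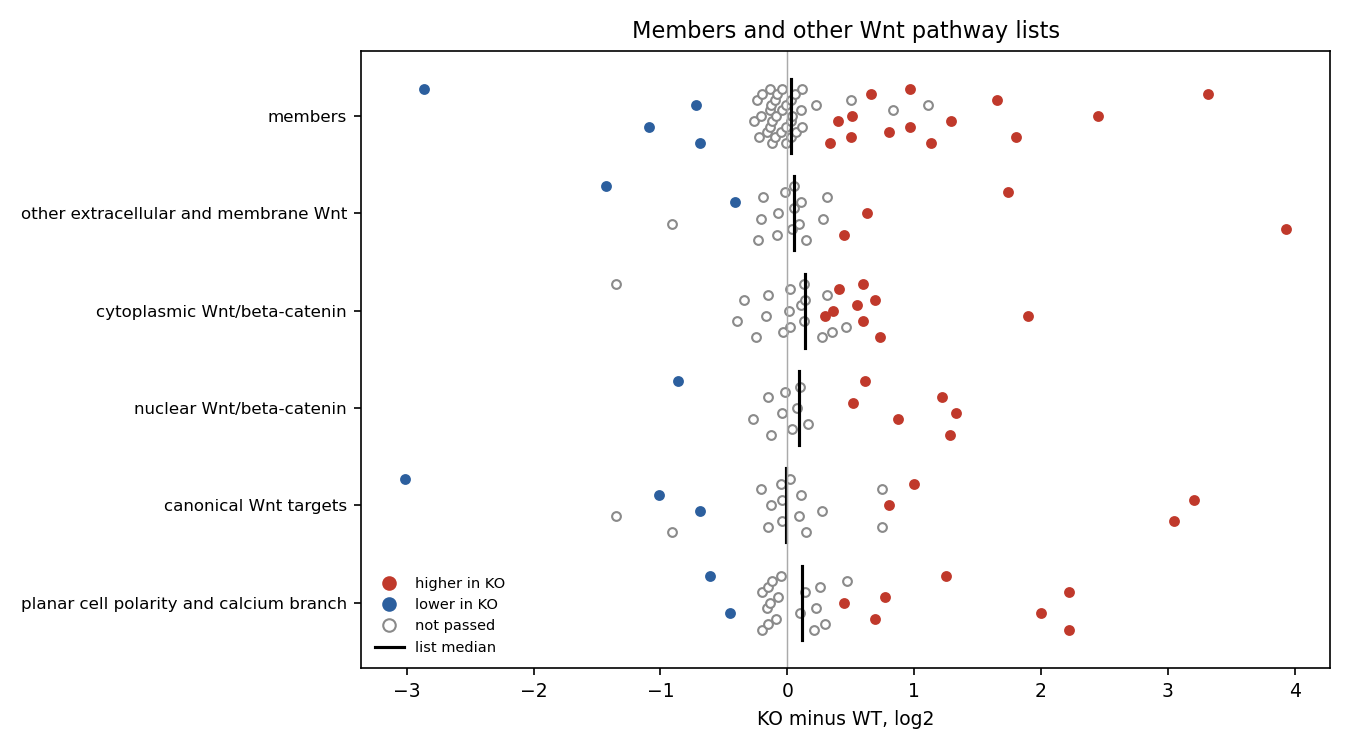
Change of each gene (KO minus WT, log2, horizontal axis) for the members and for 5 lists of other Wnt pathway genes, with 1 point a gene, filled where it passed (limma, adjusted p under 0.05), and a line at the list median. Points are jittered vertically, and some genes stand in more than 1 list. The medians lie between -0.01 and 0.14, while Ptk7 (3.93), Wnt7b (3.32) and Cdx1 (-3.01) lie far out.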

How the data were processed

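Biotin-labelled total RNA of 10 samples was hybridised, 1 array a sample, per the labels' protocols. The authors deposited log2 levels per probe set. The submitters' processing notes name RMA and limma. Versions, genome build and whether all arrays were normalized together were not given in the sources used here. No scanner file was used, and the number of arrays limits the precision. Of 28846 probe sets 6640 were controls, 5222 of them negative, and 19572 carried 1 gene symbol (0 carried several and 2634 are unnamed here).

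KO was compared with WT by a 2-group linear model with moderated variances (limma 3.58.1, R 4.3.3) on all probe sets, adjusted by Benjamini-Hochberg over the 19572, with a threshold of 0.05. Intervals are 95% and unadjusted. Members and lists were chosen with earlier results of these data known. Members that passed and 9 genes of known intestinal role were given array by array, with the 4 smallest p-values of each list named. Wnt10a, Fzd2, Ror1, Lgr5 and Axin2 were given by array after their values were seen. Promoters and gene order came from RefSeq (GRCm38.p6). Arrays correlated at 0.968 to 0.988 within KO, 0.959 to 0.993 within WT and 0.848 to 0.905 between the groups. The fit was tested on simulated data. Alternatives are in the closing section. Figures were made with matplotlib 3.10.9.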

Additional observations from a re-analysis of the deposited data

Results flagged for a closer look

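In 9 of 164 groups of 5 arrays looked at, 1 array lay far from the other 4 with a gap to its neighbour above 0.71 of the group's whole range, the 95% value of Dixon's test, and chance gives about 1 in 20. 5 of the 9 were members. Znrf3 was low in KO replicate 2, at 8.59 with the next array at 9.23. Rspo1 was high in KO replicate 2 (7.59, next 7.28) and Fzd9 low in KO replicate 4 (6.73, next 6.95), both in the dim range. WT replicate 4 was the high array for Lrp6 (9.76, next 9.58), for Wnt2 (5.45, next 5.18) and, outside the members, for Tcf7l2 (11.19, next 10.64). Among the other genes Lyz1 was high in KO replicate 4 (5.13), Tnks2 low in KO replicate 2 (10.03) and Nfkbia high in WT replicate 5 (9.85).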

How the results depend on the processing

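The 10 arrays were left out in turn and 11 other alternatives were run. 13 of the 18 members that passed kept call and direction in all of them, and no member's call changed direction. Wnt7b, Wnt4, Fzd1 and Ror2 are among the 13. The 5 others were Ryk, Znrf3, Fzd3, Sfrp5 and Lrp6. Lrp6 lost its call only against a change of 1.2-fold (limma's treat, adjusted p = 0.0746). Against 1.2-fold 9 members rose and 4 fell, 18 other pathway genes rose and 2 fell, and 1772 of all named probe sets were higher and 1262 lower, since this test asks for a larger change. Leaving out 1 array gave 10 to 16 members that rose and 4 that fell, 22 to 30 other pathway genes that rose and 5 to 9 that fell, and 2475 to 2935 probe sets higher and 1855 to 2310 lower. 10 members rose without KO replicate 5, in place of 14. Of 35 members that did not pass, 3 passed in at least 1 alternative, namely Wnt10a, Ror1 and Wnt9b. Wnt10a had an adjusted p of 0.0412 with the dimmest 25% of probe sets left out and 0.0453 without control probe sets (limma). Sfrp5 did not pass with KO replicate 2 and WT replicate 4 left out (limma, adjusted p = 0.0722), and Fzd3 not with arrays centred on the 75th percentile (limma, adjusted p = 0.0660). Centring on the 75th percentile moved the median change of all named probe sets from -0.015 to -0.047, and cyclic loess moved it to -0.01. Leaving out the dimmest 25% left 6 members and Fuz untested. Same-numbered KO and WT arrays deviated from their group means with correlations of -0.07 to 0.36, and 2 of 5 KO arrays matched best their own number in WT, so the numbers were not taken to pair the samples. With the number as a replicate block 14 members rose and 4 fell, Wnt10a passed (limma, adjusted p = 0.0478) and Axin2 passed (limma, adjusted p = 0.0122), while Sfrp5 did not (limma, adjusted p = 0.0661). The causes of these differences were not tested. Signal within the negative control range limits what can be said of 39 of the 53 members, as of 11094 of the 19572 named probe sets.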
